A study of Rattus norvegicus with 8 samples.

Results

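Toll-like receptors and the IRAK kinases form the first steps by which an animal reads bacterial lipopolysaccharide (LPS), a constituent of the Gram-negative cell envelope. The 10 genes described here are Tlr2, Tlr4, Cd14, Myd88, Tirap, Tollip, Irak1, Irak2, Irak3 and Irak4, taken from the deposited table by gene symbol, with older synonyms counted. They are 10 of the 14332 genes with a symbol in the table, each had a single probe, and each had a value on every array. The study profiled the liver of Sprague Dawley rats, with 4 animals injected intraperitoneally with LPS at 3 mg/kg and 4 control animals that, per the labels' protocol, received the saline vehicle, although the sample titles call them non-treated. Livers were collected 24 h later per that protocol, and the age of the animals is given as not known. Every array carried the RNA of 1 liver in Cy5 beside 1 pool of control livers in Cy3. The column headers of the table give other doses and times, which are all at day 2, with control columns at 0 mkd, the column of LPS array 1 marked Mid at 100 mkd, and those of LPS arrays 2 to 4 marked High at 1000 mkd. The values cannot settle which holds, so the groups are called control and LPS.

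As background, TLR4 binds LPS together with its coreceptor CD14, which takes up LPS handed over by the plasma LPS-binding protein, whereas TLR2 recognises bacterial lipoproteins. Both receptors recruit the adaptor MYD88 through the bridging adaptor TIRAP, and MYD88 assembles IRAK4, which activates IRAK1 and IRAK2 on the way to NF-kB and the MAP kinases. IRAK3 (also called IRAK-M) and TOLLIP restrain this signal. In the liver the receptors are known from Kupffer cells, the resident macrophages, and also from endothelial cells, stellate cells, hepatocytes and incoming leukocytes.

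The promoters below show what lies in front of the start site of Tlr2 and Irak3, the 2 genes with the largest rises described below, and of Tlr4, the LPS receptor itself, whose difference did not pass the test. The sequences are those of RefSeq on the GRCr8 build, from 250 bases before to 50 bases after the start site, and 9 of the 10 genes matched an entry, all but Irak2. The Tlr2 promoter lies at chr2:171504508-171504807 on the minus strand, that of Irak3 at chr7:57598582-57598881 on the minus strand and that of Tlr4 at chr5:85160997-85161296 on the plus strand. Each is written 5′ to 3′ along the gene. Capitals mark matches to the NF-kB consensus in Tlr2 and Irak3 and to AGGAAGT, the core bound by PU.1, a myeloid transcription factor, in Tlr4.
Tlr2: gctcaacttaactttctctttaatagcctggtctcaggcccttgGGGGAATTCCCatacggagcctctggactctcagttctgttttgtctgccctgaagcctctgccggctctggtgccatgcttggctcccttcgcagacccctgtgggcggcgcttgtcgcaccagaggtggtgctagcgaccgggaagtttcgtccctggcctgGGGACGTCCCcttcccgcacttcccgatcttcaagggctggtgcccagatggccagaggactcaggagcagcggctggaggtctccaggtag
Irak3: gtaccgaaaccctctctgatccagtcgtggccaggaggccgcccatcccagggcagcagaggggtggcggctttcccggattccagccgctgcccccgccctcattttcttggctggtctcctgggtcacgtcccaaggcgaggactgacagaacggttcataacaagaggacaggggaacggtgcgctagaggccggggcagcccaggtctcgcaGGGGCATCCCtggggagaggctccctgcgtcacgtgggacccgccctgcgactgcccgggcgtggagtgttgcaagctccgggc
Tlr4: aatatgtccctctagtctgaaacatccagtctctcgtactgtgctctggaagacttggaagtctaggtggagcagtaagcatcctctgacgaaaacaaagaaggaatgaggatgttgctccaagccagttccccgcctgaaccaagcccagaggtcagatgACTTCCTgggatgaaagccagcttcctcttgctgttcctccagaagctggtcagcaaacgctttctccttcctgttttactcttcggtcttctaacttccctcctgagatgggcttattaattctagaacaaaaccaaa
The NF-kB consensus was found in 2 of the 9 genes with a promoter entry, and in 7.51% of 33469 rat promoters of the same length. In Tlr2 it matched 3 times, with the overlapping GGGGAATTCC and GGGAATTCCC starting at -206 and -205 from the start site and GGGACGTCCC starting at -42. In Irak3 it matched once, as GGGGCATCCC starting at -34. The other motifs searched, on both strands, were TTCNNNGAA (8.87% of promoters), TGANTCA (7.33%), AGGAAGT (8.41%) and GAAA followed after any 2 bases by another GAAA, as in interferon response elements (3.92%). Tlr4 held AGGAAGT on the minus strand, and Myd88 held TGANTCA as well as TTCNNNGAA and the repeated GAAA, which overlap each other. None of the 5 motifs matched in the windows of Cd14, Tirap, Tollip, Irak1 or Irak4. A match is a match of letters and was not tested for binding.

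After LPS, 5 of the 10 genes rose and none fell. Tlr2 (3.10-fold), Irak3 (2.30-fold) and Irak2 (1.73-fold) rose with control and LPS arrays that did not overlap, and Irak4 (1.41-fold) and Irak1 (1.31-fold) rose by less, with arrays that did. The call of Irak1 was the least secure, since the rounding of its dim probe allows a difference of -0.05 to 0.83 on the log2 scale and the liver channel alone gave 0.07 (adjusted p = 0.709). Tlr4, Cd14, Myd88, Tirap and Tollip did not pass the test. The measure was the log2 ratio of the liver over the pool on the same array, and a gene was called with a Benjamini-Hochberg adjusted p under 0.05 in limma fitted over all 21052 features of the table. By that rule 24.7% of all features were called, 12.2% higher and 12.4% lower, and the count of members is to be read against that share. The median difference was 0.21 on the log2 scale over the 10 genes and -0.04 over all features. At an unadjusted p under 0.05, 5 members were higher and 2 lower. The share of all features at that threshold is not given here, so that count has no baseline. Tollip, at an unadjusted limma p of 0.0383, ranked only at place 7384 of the 21052 features.

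**Figure D1:**
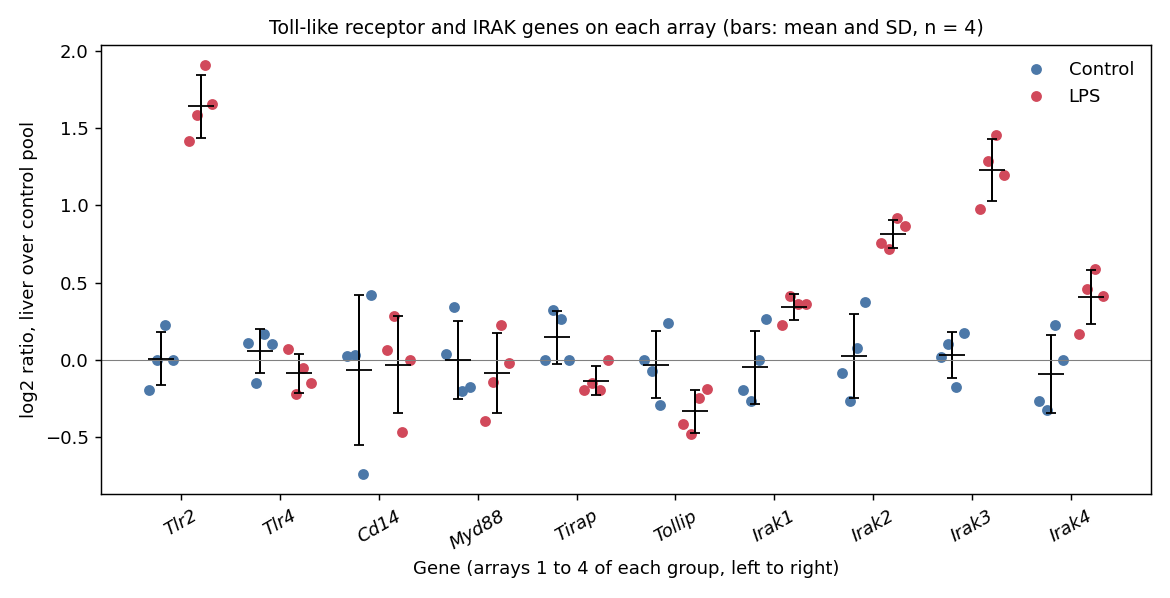
Log2 ratio of liver over control pool (vertical axis) for each of the 10 genes on control arrays (blue, n = 4) and LPS arrays (red, n = 4), with the mean and SD as black bars. The LPS arrays of Tlr2, Irak2 and Irak3 lie above all their control arrays, and the groups overlap for the other genes.

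Of 23615 probes, 23408 to 23529 had a value on an array, and the median liver intensity was 0.12 to 0.17 arbitrary units. Intensities are deposited in steps of 0.01 units, so that dim probes take few distinct values, and 19.1% to 38.4% of probes on an array had the same value in both channels. Tlr2, Irak1, Irak4 and Tirap were such dim probes in the control livers, and for them the range of the difference that the rounding allows is given. The pool channel, which holds the same RNA on every array, was not identical between arrays. Its first principal component took 60.8% of the variance over 5522 probes and placed control arrays 2 to 4 at -11.4 to -8.43, LPS arrays 2 to 4 at 8.27 to 12.8, and control array 1 and LPS array 1 between them at -0.73 and -0.23. The array set therefore moved with the group, and only the middle set of 2 arrays holds both groups. The part of the array sets in the results was tested only through those 2 arrays, whose values are given below.

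Among the receptors, Tlr2 (probe 10024569285) had liver intensities of 0.07, 0.05, 0.07 and 0.05 units on control arrays 1 to 4 and of 0.16, 0.18, 0.15 and 0.22 units on LPS arrays 1 to 4. Every LPS liver was above every control liver. The pool intensity beside them was 0.08, 0.05, 0.06 and 0.05 units on the control arrays and 0.06, 0.06, 0.04 and 0.07 units on the LPS arrays. The log2 ratios were -0.19, 0, 0.22 and 0 on the control arrays and 1.42, 1.58, 1.91 and 1.65 on the LPS arrays. The groups did not overlap at any intensities within the rounding, and the difference was 1.63 ± 0.12 on the log2 scale (SE, n = 4 and 4; limma adjusted p = 0.000235). The rounding allows a difference of 1.22 to 2.06. By its p, Tlr2 ranked at place 159 of the 21052 features. In the authors' deposited table, the p of liver against pool for Tlr2 was 1.4e-07, 6.53e-07, 0.000598 and 1.17e-12 on LPS arrays 1 to 4. The liver channel alone, quantile-normalized, gave 1.26 ± 0.16 on the log2 scale (adjusted p = 0.00115). Between LPS array 1 and control array 1, the 2 arrays of the middle set, the ratio differed by 1.61 on the log2 scale (adjusted p = 0.0347 with a term for the array set). That p sets 1 array against 1, with the spread taken from the arrays of the other sets.

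Tlr4 (probe 10026791905), the LPS receptor, had liver intensities of 0.27, 0.18, 0.18 and 0.15 units on the control arrays and of 0.21, 0.30, 0.27 and 0.28 units on the LPS arrays. The livers of LPS arrays 2 to 4 were at or above every control liver, and the pool beside them was above the pool beside every control. The pool read 0.25, 0.20, 0.16 and 0.14 units beside the controls and 0.20, 0.35, 0.28 and 0.31 units beside LPS. As log2 ratios of liver over pool, the values were 0.11, -0.15, 0.17 and 0.10 on the control arrays and 0.07, -0.22, -0.05 and -0.15 on the LPS arrays. The groups overlapped, and the difference was -0.14 ± 0.09 on the log2 scale (adjusted p = 0.293). The liver channel alone gave the other sign, 0.28 ± 0.15 (adjusted p = 0.24).

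Cd14 (probe 10026786659), the coreceptor that presents LPS to TLR4, had liver intensities of 0.53, 0.49, 0.30 and 0.71 units on the control arrays and of 0.48, 0.62, 0.34 and 0.48 units on the LPS arrays. The pool stayed between 0.46 and 0.53 units throughout. Control array 3 and LPS array 3 were the lowest of their groups, with log2 ratios of -0.74 and -0.47, and control array 4 was the highest at 0.42. In the authors' deposited table, the p of liver against pool for Cd14 was 3.98e-06 on control array 3. The control SD of 0.485 compares with a median of 0.159 over all features, and 7.14% of features had a larger one. The difference was 0.03 ± 0.26 on the log2 scale (adjusted p = 0.944). Its standard error was the largest among the 10 genes, and a moderate change in either direction was not detectable with these 8 arrays.

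The effect on Tlr2 was larger than that on Tlr4. The within-array difference between the log2 ratios of the 2 genes was 1.78 ± 0.17 higher in the LPS group (SE; exact two-sided permutation test over 70 splits, p = 0.0286, which is the smallest this design can give, and 0.0476 adjusted over the 5 pairs compared). The adjusted p was 0.0714 after quantile normalization of the ratios and 0.143 with the liver channel alone. Cd14 and Tlr4 differed by 0.18 ± 0.33 (exact permutation test, adjusted p = 0.657).

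Of the adaptors, Myd88 (probe 10026801041), which couples the receptors to the IRAK kinases, was read at 7.48, 10.3, 6.78 and 6.87 units in the control livers and at 5.92, 6.27, 9.18 and 6.96 units in the LPS livers. Its intensities are far above the rounding step, so that its spread is not set by it. Liver over pool gave log2 ratios of 0.04, 0.34, -0.20 and -0.17 on the control arrays and -0.39, -0.14, 0.22 and -0.02 on the LPS arrays. Control array 2 and LPS array 3 were the highest of their groups, and the groups overlapped. The difference was -0.08 ± 0.16 on the log2 scale (adjusted p = 0.741).

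Tirap (probe 10026797591), the bridging adaptor, had liver intensities of 0.05, 0.05, 0.06 and 0.06 units on the control arrays and of 0.07, 0.09, 0.07 and 0.09 units on the LPS arrays. The pool was also higher beside LPS, at 0.08 to 0.10 units against 0.04 to 0.06 units beside the controls, with no overlap. In log2 ratios this was 0, 0.32, 0.26 and 0 on the control arrays and -0.19, -0.15, -0.19 and 0 on the LPS arrays. The difference of -0.28 ± 0.09 on the log2 scale did not pass the adjusted threshold (limma adjusted p = 0.0661). The rounding allows -0.74 to 0.17, and the liver channel alone gave 0.17 ± 0.20 (adjusted p = 0.595), so its direction is not settled. Tirap and Myd88 did not differ beyond their spread in their response (-0.20 ± 0.18, exact permutation test, adjusted p = 0.571).

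**Figure D2:**
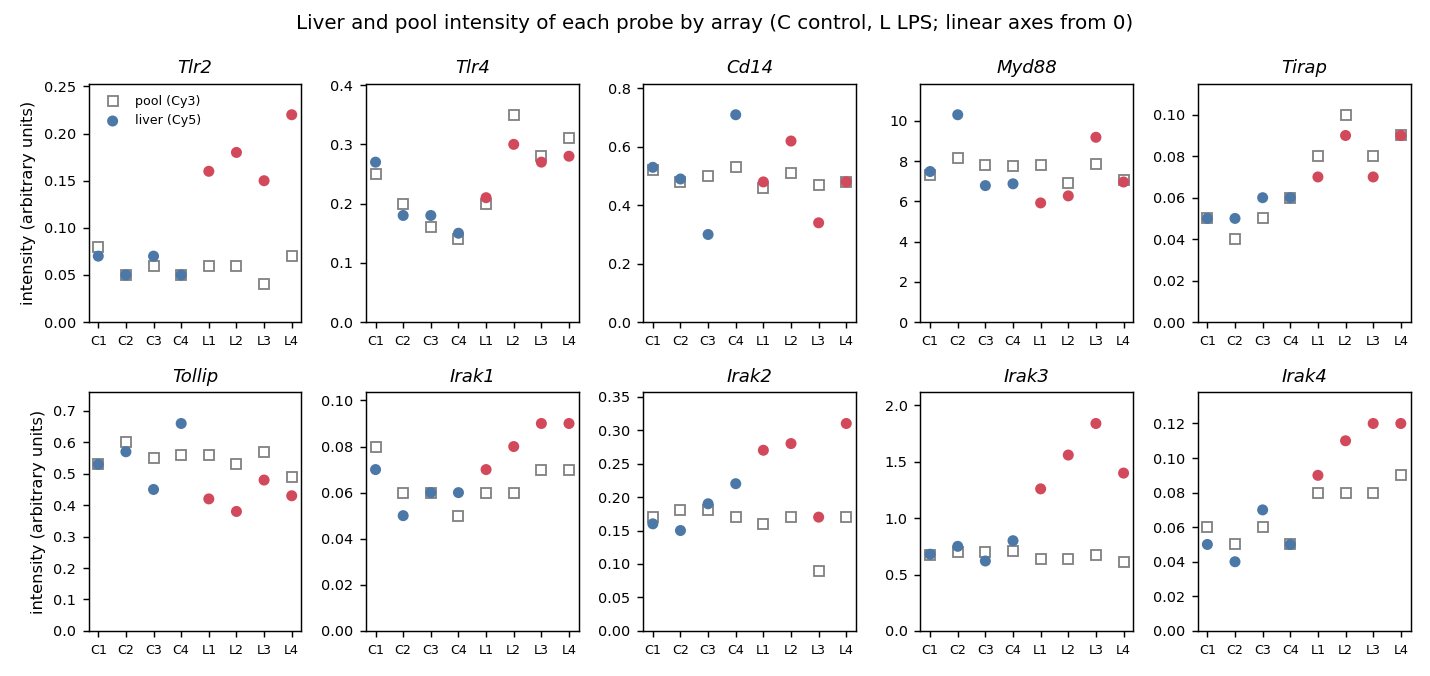
Intensity in arbitrary units (vertical axes, linear from 0) of the liver in Cy5 (filled points, blue for control and red for LPS) and of the control pool in Cy3 (open squares) on control arrays C1 to C4 and LPS arrays L1 to L4, with a panel per gene. For Tlr2 and Irak3 the liver lies well above the pool on the LPS arrays, while for Tlr4 and Tirap the pool moves with the liver.

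Irak4 (probe 10026793073), the kinase that MYD88 recruits first, had liver intensities of 0.05, 0.04, 0.07 and 0.05 units on the control arrays and of 0.09, 0.11, 0.12 and 0.12 units on the LPS arrays. The pool read 0.05 to 0.06 units beside the controls and 0.08 to 0.09 units beside LPS, so both channels were higher on the LPS arrays. The ratios, on the log2 scale, were -0.26, -0.32, 0.22 and 0 on the control arrays and 0.17, 0.46, 0.58 and 0.42 on the LPS arrays. LPS array 1 lay below control array 3, and the groups overlapped there. The difference was 0.50 ± 0.14 on the log2 scale (adjusted p = 0.038), with 0.07 to 0.93 allowed by the rounding. The liver channel alone gave 0.76 ± 0.20 (adjusted p = 0.0308). The call held when control array 3 or LPS array 1 was left out and was lost when any other single array was, with an adjusted p of at least 0.061.

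Irak1 (probe 10026786854), a kinase that IRAK4 activates, had liver intensities of 0.07, 0.05, 0.06 and 0.06 units on the control arrays and of 0.07, 0.08, 0.09 and 0.09 units on the LPS arrays. The pool beside them was 0.08, 0.06, 0.06 and 0.05 units and then 0.06, 0.06, 0.07 and 0.07 units. The log2 ratios were -0.19, -0.26, 0 and 0.26 on the control arrays and 0.22, 0.42, 0.36 and 0.36 on the LPS arrays. Control array 4 lay within the LPS range. The difference was 0.39 ± 0.12 on the log2 scale (adjusted p = 0.0474), the smallest of the 5 rises. The deposited decimals do not settle its sign. It was called without control array 4 (0.49, adjusted p = 0.00912) and lost without any other single array (adjusted p of 0.0628 to 0.113). The pool intensity, quantile-normalized, was lower beside LPS by -0.34 ± 0.12 on the log2 scale (adjusted p = 0.142), against 0.07 ± 0.12 in the liver channel.

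Irak2 (probe 10026793152), the related kinase that sustains the later signal, had liver intensities of 0.16, 0.15, 0.19 and 0.22 units on the control arrays and of 0.27, 0.28, 0.17 and 0.31 units on the LPS arrays. LPS array 3 was within the control range in the liver channel, and its pool was also low, at 0.09 units against 0.16 to 0.18 units on the other 7 arrays. As log2 ratios of liver over pool, the values were -0.09, -0.26, 0.08 and 0.37 on the control arrays and 0.75, 0.72, 0.92 and 0.87 on the LPS arrays, with no overlap. The difference was 0.79 ± 0.13 on the log2 scale (adjusted p = 0.0048), with 0.63 to 0.95 allowed by the rounding. The liver channel alone gave 0.33 ± 0.23 (adjusted p = 0.365), so the call rests on the ratio. The difference of Irak2 was above that of Irak1 by 0.40 ± 0.06 on the log2 scale in the values as deposited (exact permutation test, p = 0.0286, adjusted p = 0.0476). The ranges that the rounding allows the 2 genes overlap, so the decimals do not settle their order. The adjusted p of that pair was 0.0714 after quantile normalization and 0.457 with the liver channel alone.

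Of the inhibitory members, Irak3 (probe 10026798132) had liver intensities of 0.68, 0.75, 0.62 and 0.80 units on the control arrays and of 1.26, 1.56, 1.84 and 1.4 units on the LPS arrays. Every LPS liver was above every control liver, while the pool stayed between 0.61 and 0.71 units on all 8 arrays. Liver over pool gave log2 ratios of 0.02, 0.10, -0.18 and 0.17 on the control arrays and 0.98, 1.29, 1.46 and 1.20 on the LPS arrays. The difference was 1.20 ± 0.12 on the log2 scale (adjusted p = 0.000529), and the rounding allows only 1.16 to 1.24. By its p, Irak3 ranked at place 430 of the 21052 features. The liver channel alone gave 1.07 ± 0.14 (adjusted p = 0.00155). LPS array 1 and control array 1 differed by 0.96 on the log2 scale (adjusted p = 0.09 with a term for the array set). The rise of Irak3 exceeded that of Irak4 by 0.70 ± 0.18 (exact permutation test, p = 0.0286, adjusted p = 0.0476), with an adjusted p of 0.143 after quantile normalization and of 0.457 with the liver channel alone.

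Tollip (probe 10026789002), an adaptor that binds IRAK1 and dampens the signal, had liver intensities of 0.53, 0.57, 0.45 and 0.66 units on the control arrays and of 0.42, 0.38, 0.48 and 0.43 units on the LPS arrays. LPS array 3 lay above control array 3. In log2 ratios this was 0, -0.07, -0.29 and 0.24 on the control arrays and -0.42, -0.48, -0.25 and -0.19 on the LPS arrays. The difference was -0.30 ± 0.12 on the log2 scale and did not pass the test (limma adjusted p = 0.109). Without control array 3 it was called lower, at -0.39 (adjusted p = 0.0445).

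Of the called members, 4 of 5 had their lowest LPS ratio on LPS array 1, which carries the Mid header, the exception being Irak2. The share over all called features is not given here, so that count has no baseline. LPS array 1 was also the only LPS array of the middle set, and a single array cannot separate a dose from an animal or an array set. With a term for the array set, which leaves only LPS array 1 against control array 1, Irak2, Irak1 and Irak4 differed by 0.84, 0.42 and 0.43 on the log2 scale with adjusted p of 0.218, 0.443 and 0.463. Of the 10 genes, 3 had groups that did not overlap, all higher after LPS, against 13.1% of all features apart in that direction and 27.8% in either. With the liver channel alone, Tlr2, Irak3 and Irak4 were called higher, 3 of the 10 genes against 7.13% of all features. In the pool channel, where 0.038% of features were called between the arrays of the groups, none of the 10 genes was called. Against a 1.5-fold change (limma treat), Tlr2 and Irak3 were called, where 1.2% of all features were called higher. The same 2 genes were called after quantile normalization of the ratios, where 3.92% of features were higher, and Tlr2 alone with the array-set term, where 1.62% were.

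**Figure D3:**
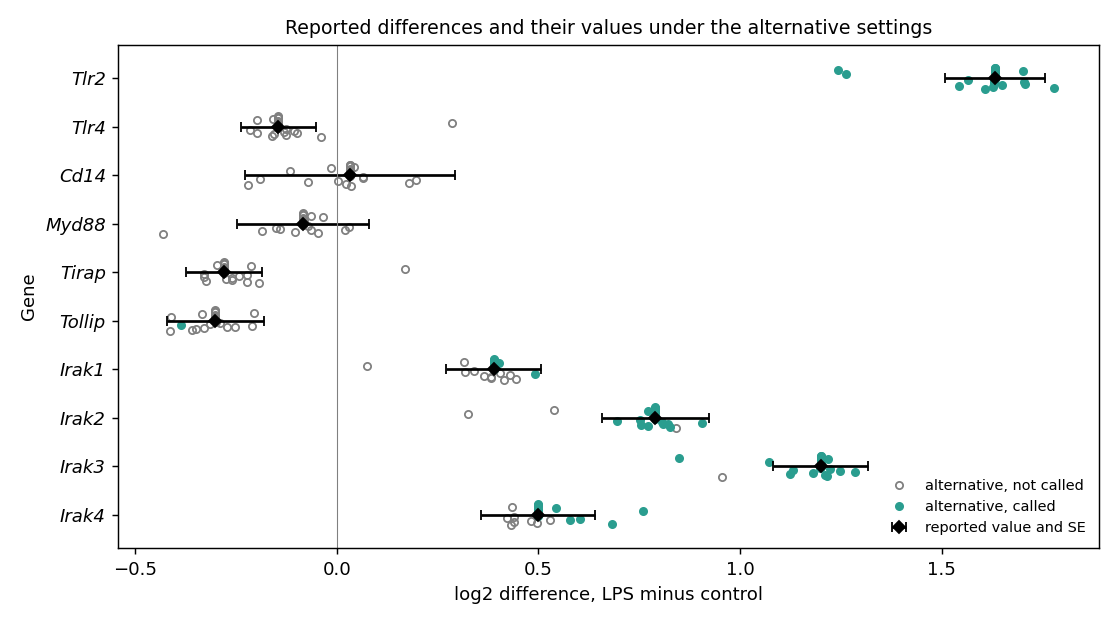
Log2 difference LPS minus control (horizontal axis) of each gene as reported (black diamond with its SE) and under the alternative settings (circles, filled where the call passed). The lowest values under any setting are 1.24 for Tlr2 and 0.85 for Irak3, while those of Tlr4, Cd14, Myd88 and Tirap fall on both sides of 0.

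Markers of the cell types a liver sample holds moved in the same arrays. Of 10 neutrophil markers, 8 rose and 0 fell, and their summed liver intensity was 0.55 to 0.66 units in controls and 8.37 to 14.4 units after LPS. The calprotectin subunits S100a9 and S100a8 rose by 4.8 and 4.31 on the log2 scale, and by 5.30 and 5.48 in the liver channel alone. The mean control intensity of S100a8 was 0.0125 units, close to the rounding step, so the size of its rise is not settled. Of 7 monocyte and macrophage markers 2 rose, with sums of 12.7 to 14.7 and 14.5 to 19.8 units, and of 5 pan-leukocyte markers 4 rose, with sums of 3.52 to 3.97 and 4.14 to 6.27 units. Of 4 Kupffer cell markers 2 fell and none rose, with sums of 10.9 to 16.3 and 3.51 to 6.99 units. The Kupffer lectin Clec4f, which held most of the control sum, fell by 2.30 on the log2 scale. Its mean was 9.58 units in controls and 1.9 units after LPS. Vsig4 fell by 0.45 in the ratio but was not called in the liver channel alone (-0.34, limma adjusted p = 0.106). Marco, at means of 2.47 and 2.50 units, and Cd163 were not called. T and NK cell markers rose in 4 of 6 cases (sums of 0.98 to 1.14 and 1.62 to 2.43 units), and stellate cell markers in 2 of 4 (4.32 to 5.71 and 4.75 to 5.79 units). Of 4 sinusoidal endothelial markers 1 rose and 2 fell (38.7 to 45.2 and 25.6 to 34.3 units). None of 3 B cell (0.14 to 0.35 and 0.23 to 0.35 units) or 3 cholangiocyte markers (0.64 to 0.92 and 0.76 to 0.93 units) was called. Of 4 hepatocyte markers tested 1 rose and 2 fell. The hepatocyte sums, of 80.4 to 123.7 and 51.8 to 163.9 units, cover 8 probes. They include probes of listed genes that were not tested, so they are not sums of the 4 markers alone. No list summed to 0 on any array. The part of these cell types in the rises of Tlr2, Irak1, Irak2, Irak3 and Irak4 was not tested, and in whole liver a change in the number of cells of a type and in the RNA per cell cannot be told apart.

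The rest of the pathway was read from 4 lists holding 73 other genes, of which 57 were tested and 16 were not. Of the 57, 18 rose and 6 fell, with a median difference of 0.04 on the log2 scale, against 12.2% of all features called higher and 12.4% called lower. The share that fell was near that of all features. Among other receptors and accessory proteins, 6 of 14 tested rose and 2 fell. Lbp, the plasma protein that hands LPS to CD14, rose by 2.12 ± 0.63 on the log2 scale (adjusted p = 0.0454), with control arrays spread from -1.66 to 1.51 and LPS arrays from 1.52 to 1.74. Control array 3, at 1.51, lay just below the lowest LPS array. Tlr6, the partner of TLR2 in recognising diacylated lipoproteins, rose by 1.88 ± 0.18 (adjusted p = 0.000529), beside 1.63 for Tlr2. Its 4 LPS ratios were 1.47, 1.98, 1.86 and 2.19 against -0.28 to 0.35 in controls. Cd180, a receptor homologue of TLR4 on B cells and macrophages, rose by 1.13 ± 0.10 (adjusted p = 0.000437). Cd36, a scavenger receptor that serves TLR2 and TLR6, fell by 0.88 (SE 0.15, adjusted p = 0.00455), and Cnpy3, a chaperone of Toll-like receptors, fell by 0.33 (SE 0.06, adjusted p = 0.00644). In the liver channel alone Cnpy3 was not called, at -0.31 (adjusted p = 0.119), and Cd180 gave 0.60 (adjusted p = 0.0471). Ly96, the MD-2 subunit of the TLR4 complex, and Tlr1 were not analysed here.

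Among the adaptors and kinases that act beside or after the members, 8 of 24 tested rose and 1 fell. Sarm1, a TIR-domain adaptor known as a brake on TRIF signalling, rose by 2.88 ± 0.41 on the log2 scale (adjusted p = 0.00232), the largest rise of the 4 lists. Its LPS ratios were 2.51, 2.42, 3.27 and 2.71 while the controls ranged from -0.85 to 0.84. Irf7, a transcription factor of the interferon response downstream of MYD88, rose by 1.61 ± 0.36 (adjusted p = 0.0159). Map3k8, the kinase TPL2 that leads to ERK, rose by 1.12 ± 0.14 (adjusted p = 0.00141), and Peli2, a ubiquitin ligase that acts on the IRAKs, fell by 0.57 (SE 0.09, adjusted p = 0.0045), with -0.88 in the liver channel alone.

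Of the tested restraints on the pathway, 3 of 13 rose and 2 fell, counts too small to set apart from the 12.2% and 12.4% of all features. Zc3h12a, the endoribonuclease Regnase-1, rose by 1.26 ± 0.14 on the log2 scale (adjusted p = 0.000828), Tnip2, a binding partner of A20, by 0.68 ± 0.08 (adjusted p = 0.00135) and Ptpn6, the phosphatase SHP-1, by 0.56 ± 0.08 (adjusted p = 0.00194). Dusp1, a phosphatase that switches off MAP kinases, fell by 1.31 (SE 0.18, adjusted p = 0.00208). Socs1, a suppressor of cytokine signalling, fell by 0.22 (SE 0.06, adjusted p = 0.0245) in the ratio, while the liver channel alone gave 0.19 in the other direction (adjusted p = 0.433). Of the 6 IL-1 family receptors tested, the decoy receptor Il1r2 rose by 1.42 ± 0.22 (adjusted p = 0.00326). Its mean control intensity was 0.03 units, close to the rounding step, so the size of its rise is not settled. The IL-18 receptor chain Il18r1 fell by 0.46 (SE 0.07, adjusted p = 0.00343) in the ratio. In the liver channel alone Il18r1 was not called, at -0.18 (adjusted p = 0.73). The other 4 were not called.

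**Figure D4:**
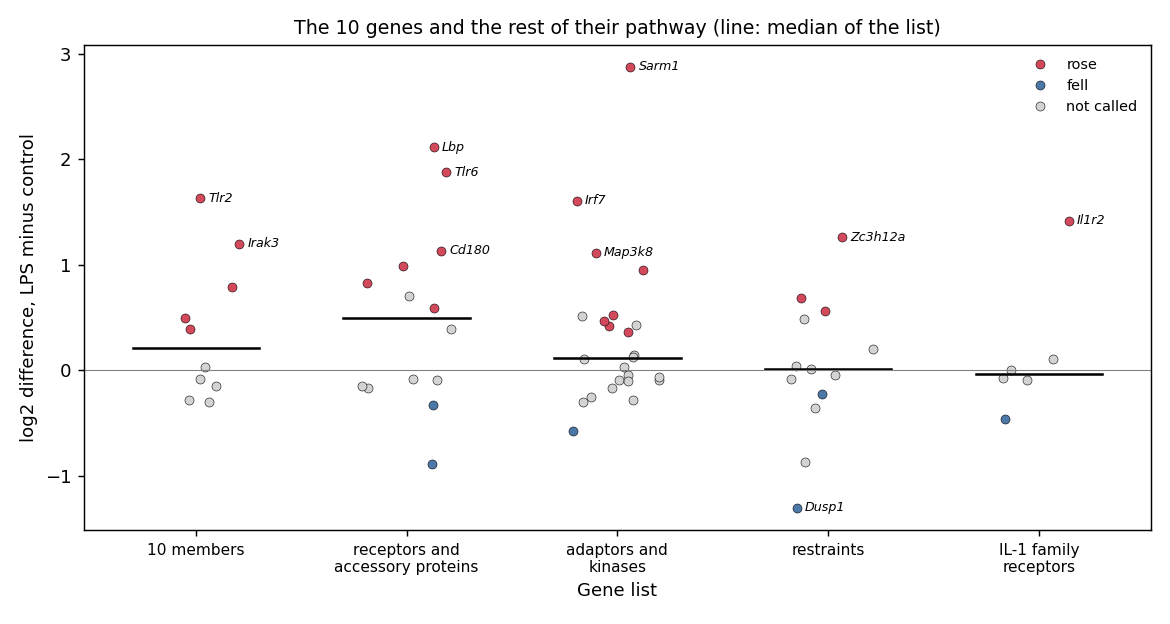
Log2 difference LPS minus control (vertical axis) of the 10 genes and of the tested genes of the 4 pathway lists, in red where a gene rose, in blue where it fell and in grey where it was not called, with the median of each list as a line. The medians are 0.21 for the 10 genes, 0.49 for receptors, 0.12 for adaptors and kinases, 0.01 for restraints and -0.04 for IL-1 family receptors.

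The genes whose log2 ratios ran most like those of each called member over the 8 arrays were found among 13943 genes with a symbol. The Pearson correlations describe these arrays and share the split into control and LPS. For Tlr2 they were Snrnp27, Trim11 and Csf2rb, with r of 0.994, 0.994 and 0.993. For Irak3 they were Nol3, Prkar2a and Pex2, with 0.993, 0.992 and 0.992. For Irak2 they were Nedd4, Stx6 and Rbm43, with 0.991, 0.989 and 0.987, and for Irak4 Gm2a, Med8 and Clpx, with 0.985, 0.973 and 0.969. For Irak1 they were Macir, Ubxn4 and Abhd2, with 0.980, 0.979 and 0.969. Not all of these genes were called: Macir (limma adjusted p = 0.109), Med8 (0.0808) and Clpx (0.0789) were not. Csf2rb, the shared beta chain of the receptors for GM-CSF, IL-3 and IL-5, rose by 1.69 on the log2 scale (adjusted p = 6.27e-05), beside 1.63 for Tlr2. Nol3 rose by 2.42 (adjusted p = 0.00015), more than Irak3 itself, so a like pattern over arrays did not mean a like size.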

How the data were processed

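Total RNA of 8 rat livers was extracted, and 100 ng was amplified in repeated rounds per the labels' protocols. Arrays were read with Agilent Feature Extraction 8.5.1.1 per the submitters' processing notes, with the dye normalization not given in the sources used here. Deposited intensity values are linear, in arbitrary units, for the liver and the pool on each array. The authors' p-value, deposited per probe and array, sets the liver against the pool of that array. The authors' series value table holds log10 ratios of the same arrays and carries the replicate numbers of the labels, which the intensity columns do not, so arrays are numbered in table order within a group. The labels call the samples biological replicates.

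A probe took its gene from its RefSeq accession in the GRCr8 gene table (3 of the 10 genes) or else from its symbol (7). Log2 ratios (liver over pool) were averaged over a gene's probes, a probe needing at least 3 values per group, and 21052 features were fitted in R 4.3.3 by limma 3.58.1, using lmFit and plain eBayes (prior degrees of freedom 1.54), and p-values were adjusted by Benjamini-Hochberg. Pairs of members were compared over the 70 splits of the arrays by a two-sided exact permutation test (scipy 1.17.1). Tables and plots were made with pandas 2.3.3 and matplotlib 3.10.9.

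Members and lists were chosen with earlier results of these data known. Named beside the members were up to 3 of the largest rises and falls among called genes of each list, Lbp and Ly96 whatever their result, the 3 genes most like each called member, and marker genes where their list is described. The genes singled out among the markers were chosen after their values were seen. On simulated data with 21052 features and 200 changed, the recovered share was 54% at a 1.5-fold change, 84% at a 2-fold, 94% at a 4-fold and 96% at an 8-fold change, and 11 calls were false. The simulated noise was normal and independent between features, without the rounding or the array sets. Far fewer features were changed than the 24.7% called here. The shares therefore check the fit and do not give the recovery on these arrays or for dim probes. There were 22 alternatives listed beforehand and 1 added after seeing the data (array sets by the first principal component of the pool channel). The fit was varied by robust eBayes, an intensity trend, array weights, treat and a replicate block. Values were varied by median centring, quantile normalization, the liver channel alone, each probe on its own and the series value table. Probes were limited to those with all 8 values, at least 0.1 units or not near the ceiling of intensity. Each array was left out, and control array 3 together with LPS array 1. The number of arrays and the rounding of dim probes limit the precision.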

Additional observations from a re-analysis of the deposited data

Results flagged for a closer look

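Dusp1 had 1 control array far from the others. Its log2 ratio was 0.45 on control array 1 against -0.26 to -0.16 on the other 3, and all 4 LPS arrays lay below every control. This was 1 of 52 groups of 4 arrays looked at over 26 genes, and chance alone flags about 1 in 20 such groups.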

How the results depend on the processing

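Tlr2 was called higher under all 23 alternatives and Irak3 under 22 of 23, all but the array-set term. Irak2 was called under 19 of 23, Irak4 under 14 of 23 and Irak1 under 9 of the 22 that tested it. The number of members called higher was 5 as reported, 2 after quantile normalization of the ratios, 3 with the liver channel alone, 2 with a test against a 1.5-fold change (limma treat), 1 with the array-set term and 3 to 4 when single arrays were left out. The lower figure came from leaving out control array 1, control array 2, or any of LPS arrays 2 to 4. The number called lower was 0 to 1 when single arrays were left out. Over all features, 3989 to 4841 were then called in either direction, against 5190 as reported. Pathway genes called higher went from 18 to 9 (quantile), 4 (treat) and 3 (array set), and those called lower from 6 to 2, 0 and 1. Over all features, the count of 5190 became 1518, 391 and 557. Treat asks for more by construction, the array-set term sets 1 array against 1 with the spread of the other arrays, and the cause of the loss under quantile normalization was not tested. Of 228 values of the members, 200 kept their side of the threshold, whatever their sign where uncalled, 27 lost the call and 1 gained it. Those 200 include the settings that could hardly change a member. A sign other than the reported one was seen 9 times, 5 for Cd14, 2 for Myd88 and 1 each for Tlr4 and Tirap, none of them called. The pairs Tlr2 and Tlr4, Irak2 and Irak1, and Irak3 and Irak4 lost their call after quantile normalization (differences of 1.4, 0.22 and 0.42) and with the liver channel alone (0.98, 0.25 and 0.31). With the replicate numbers of the labels as a replicate block, in the series value table, 4 members were called, Irak1 being lost (adjusted p = 0.0766). In that setting 3786 of all features were called. The deviations of same-numbered samples correlated at -0.003, -0.011, 0.015 and 0.153, so no clear pairing by number was seen. Only control replicate 4 correlated best with the LPS sample of its own number. Correlations this low, over so few samples, cannot settle whether the samples were paired.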
